A study of Mus musculus with 10 samples.

Results

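The genes described here build the contractile machinery of skeletal muscle and the calcium system that switches it on. They are 42 genes given by name, from the giant filament proteins titin (Ttn) and nebulin (Neb) to the ryanodine receptor (Ryr1) and the muscle creatine kinase (Ckm), and they were looked up by symbol among the 21849 genes of the deposited count table. All 42 had a row. They were measured in 10 tumours. CT26, a colon carcinoma line of BALB/c mice, was injected under the skin of mice of that strain. One group was fed a normal diet and the other an isocaloric diet without arginine, from the age of 5 weeks and from 1 week before the injection, and tumours were taken on day 20. The labels name no genetic change in either group, and all tumours came from the same injected line. There were 5 libraries from each diet, called here deficient replicates 1 to 5 and normal-diet replicates 1 to 5. Library totals ran from 12013178 to 31530123 counts. The sources used here do not say how tumours were separated from skin and muscle.

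CT26 is not a muscle line, and which cells of a tumour made these transcripts was not measured. Of 11 colon carcinoma epithelial markers, keratin 20 (Krt20) was the best detected, at 87.4 to 267 CPM (counts scaled to a common library size). The adhesion molecule Epcam stayed at or under 0.486 CPM, Krt8 at or under 2.27 CPM and Cdx2 at or under 0.673 CPM, so those epithelial markers were close to 0. Others were detected in every library, with Krt18 at 4.15 to 20.4 CPM, Lgals4 at 6.51 to 14.9 CPM and Cdh1 at 1.12 to 4.49 CPM. The 11 markers summed to 102.6 CPM in deficient replicate 3 and to 202.4 to 307.5 CPM in the other 9 libraries. Most of that sum was Krt20.

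A sarcomere is the repeating unit of striated muscle, in which myosin heavy chains of the thick filament pull on actin of the thin filament between Z-discs. A nerve impulse opens the voltage sensor Cacna1s, which gates Ryr1, and calcium released from the sarcoplasmic reticulum binds troponin on the thin filament. The pump Atp2a1 then returns calcium to the store. Many of the parts exist as paralogs that differ between fast and slow fibres, such as the myosin heavy chains Myh4, Myh1 and Myh2 of fast fibres and Myh7 of slow fibres. In mice a thin sheet of mostly fast muscle, the panniculus carnosus, lies directly under the skin.

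The stretches before the start sites of 3 members are printed first, because these genes took different places in the results. Myh4, the heavy chain of type IIb fibres, was the most abundant member in the library richest in muscle transcripts, while the IIa heavy chain Myh2 and the slow-type myosin binding protein Mybpc1 were higher in another library. Sequences are RefSeq windows of the 250 bases before the annotated start on GRCm38.p6, at chr11:67237562-67237811 (plus strand), chr11:67170777-67171026 (plus strand) and chr10:88605153-88605402 (minus strand), written 5′ to 3′. Capitals mark E-boxes (CANNTG), the motif read by MyoD and its relatives, and matches to the MEF2 consensus.
Myh4: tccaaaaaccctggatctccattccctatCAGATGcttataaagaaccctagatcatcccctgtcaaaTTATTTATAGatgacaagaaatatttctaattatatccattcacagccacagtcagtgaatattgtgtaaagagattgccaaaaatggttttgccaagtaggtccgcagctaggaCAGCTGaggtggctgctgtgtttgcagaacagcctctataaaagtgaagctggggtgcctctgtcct
Myh2: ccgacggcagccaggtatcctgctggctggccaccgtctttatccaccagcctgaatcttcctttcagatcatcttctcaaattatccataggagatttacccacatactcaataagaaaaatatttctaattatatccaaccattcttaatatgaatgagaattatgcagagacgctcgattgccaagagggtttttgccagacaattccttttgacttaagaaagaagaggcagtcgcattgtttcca
Mybpc1: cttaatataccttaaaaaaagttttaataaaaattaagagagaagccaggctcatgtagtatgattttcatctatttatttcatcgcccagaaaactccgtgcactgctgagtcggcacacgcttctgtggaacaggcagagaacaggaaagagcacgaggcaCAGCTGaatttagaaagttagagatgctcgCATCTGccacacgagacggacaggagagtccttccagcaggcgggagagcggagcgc
The Myh4 window held 2 E-boxes and 1 MEF2 match, the Mybpc1 window held 2 E-boxes, and the Myh2 window held neither motif. Windows were present for 30 of the 42 members, 34 in all because some genes have several starts. An E-box lay in 27 of the 34 windows (79.4%), against 66.2% of 32851 windows over all genes. The form CAGCTG, which is 1 kind of E-box, lay in 16 windows (47.1%), against 13% of all. A MEF2 match lay in 5 windows (14.7%, against 2.92%), those of Myh1, Myh4, Pvalb, Ttn and Xirp2. The CArG box, the site read by serum response factor, lay in 4 windows (11.8%, against 1.47%), those of Ldb3, Myh4 and Myom1. These motifs read the same on both strands, and a match is a string of letters, not a measured binding site.

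Muscle transcripts were concentrated in 3 libraries, deficient replicates 3 and 4 and normal-diet replicate 4. The 42 members summed to 109.7, 93.5, 11905, 3119 and 117 CPM in deficient replicates 1 to 5, and to 144, 115, 261, 1121 and 184 CPM in normal-diet replicates 1 to 5. Deficient replicate 3 held 1.13% of its counts in these genes, deficient replicate 4 held 0.317% and normal-diet replicate 4 held 0.113%. The diets overlapped: 3 deficient libraries were at or under 117 CPM, next to 115 CPM in the lowest normal-diet library. Much of the sum in the low libraries came from a single gene, the enolase Eno3. Without Eno3 the sums were 31.5, 31.0, 11631, 2955 and 34.4 CPM on the deficient diet and 30.9, 47.9, 167, 1019 and 44.0 CPM on the normal diet, and normal-diet replicate 3 then came next after those 3. In a tumour sampled in bulk, fewer muscle cells and less RNA per muscle cell cannot be told apart.

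Of the 41 members above 0 anywhere, 36 were highest in deficient replicate 3 and the other 5 in deficient replicate 4. The same 3 libraries were the top 3 for 38 members, the exceptions being Tnni1, Jph1 and Eno3. Normal-diet replicate 3 came next for 32 members. Only 20 members were above 0 in every library, and 11 were at 0 in at least 4. The troponin C of slow and cardiac muscle, Tnnc1, was listed at 0 in all 10 libraries, and Nisch, another annotated gene, spans 100% of its exonic bases. Deficient replicate 3 also had the highest share of counts from mitochondrial genes, 9.97% against 1.67% to 4.44% in the other 9, and the lowest Krt20, and the part of either in the member levels was not tested.

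**Figure D1:**
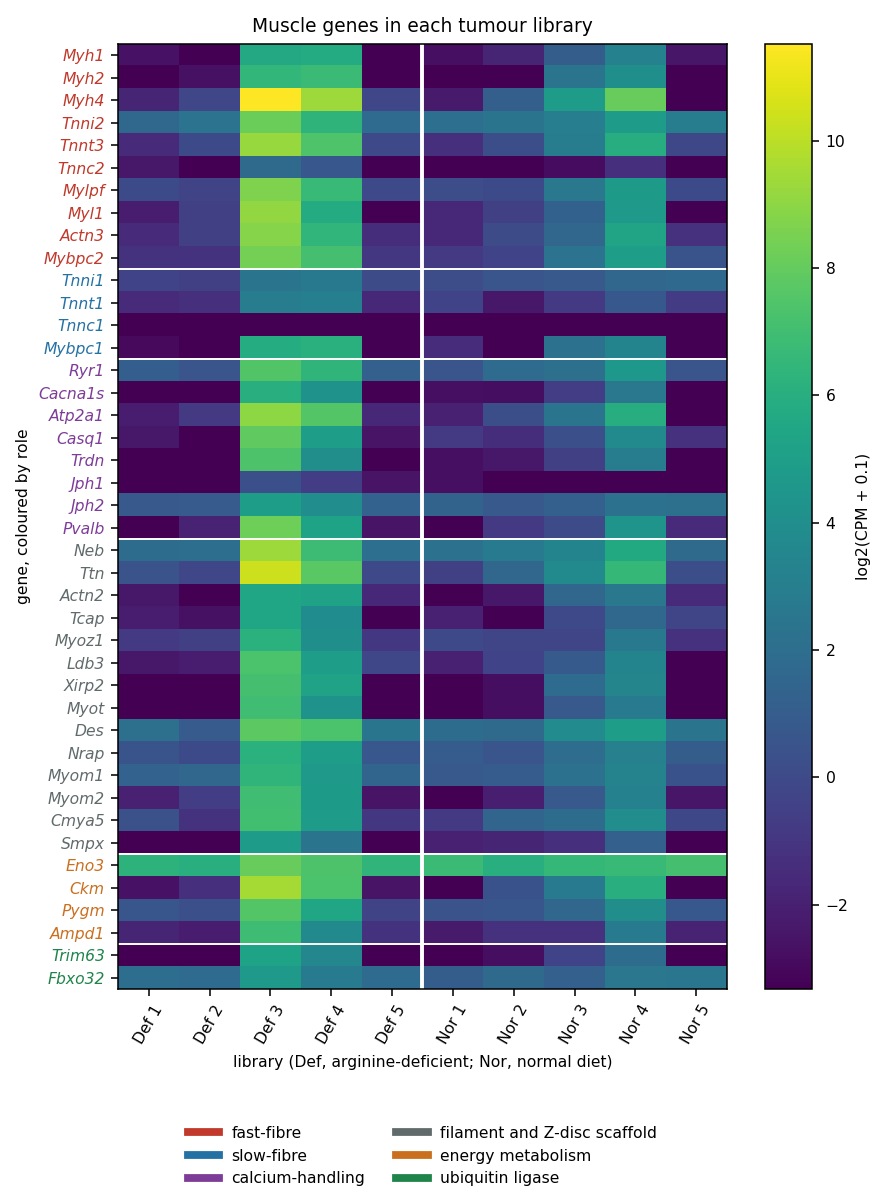
Level of each member (rows, grouped by role) in each of the 10 libraries (columns, by diet and replicate), as log2(CPM + 0.1) on the colour scale. The columns of deficient replicates 3 and 4 and normal-diet replicate 4 stand out across nearly all rows, and Eno3 is the row that is high in every column.

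**Figure D2:**
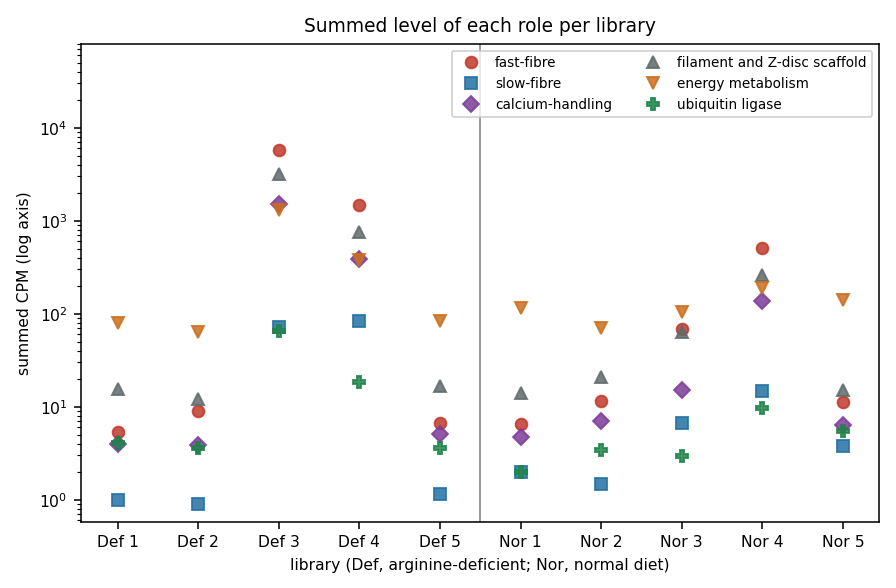
Summed CPM of the members of each role (y axis, log scale) in each library (x axis), with 1 symbol and colour per role and a line between the diets. In every role the highest point is a deficient library, and the 3 low deficient points lie among or just below the low normal-diet ones.

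In the 3 richest libraries the fast-fibre members carried the largest share of the muscle signal. Elsewhere the energy metabolism members, mostly Eno3, summed higher. The 10 fast-fibre genes summed to 5.36, 8.99, 5727, 1477 and 6.78 CPM in deficient replicates 1 to 5 and to 6.58, 11.7, 68.7, 505 and 11.4 CPM in normal-diet replicates 1 to 5. The same 3 libraries rose above the rest, and normal-diet replicate 3 was raised to a lesser degree. The highest library was on the deficient diet, but so was the lowest.

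Myh4 lies at chr11:67238029-67260446 on mm10, next to Myh1 and Myh2 in the cluster of skeletal myosin heavy chains. It stood at 0.190, 0.779, 2945, 662 and 0.793 CPM in deficient replicates 1 to 5 and at 0.108, 2.15, 29.8, 265 and 0 CPM in normal-diet replicates 1 to 5. The 6 low libraries, all but the 3 richest and normal-diet replicate 3, thus held at most 2.15 CPM of the main fast myosin, and the diets overlapped. A level under 0.0952 to 0.252 CPM, depending on the library, rests on 3 counts or fewer. The neighbouring IIx gene Myh1 reached 49.0 CPM in deficient replicate 3, 57.0 in deficient replicate 4, and 8.94 and 2.00 in normal-diet replicates 4 and 3. Myh2 reached 91.1, 112, 16.9 and 5.15 CPM in those same 4 libraries. Unlike Myh4, both were higher in deficient replicate 4 than in replicate 3, and in the other 6 libraries neither passed 0.187 CPM. The 3 heavy chains are close paralogs, and reads common to them may be split or dropped by the counting. In addition 55% of the exonic bases of Myh1 lie in the body of an antisense gene, Myhas, and the sources used here do not say whether the counting used strand.

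Fast troponins followed Myh4. Tnnt3, the fast troponin T that ties the troponin complex to tropomyosin, was at 0.254, 0.899, 609, 174 and 0.865 CPM on the deficient diet and at 0.324, 1.08, 7.49, 60.4 and 0.841 CPM on the normal diet. Tnni2, the inhibitory fast troponin I, was at 3.11, 4.97, 290.5, 82.2 and 3.53 CPM against 4.16, 5.05, 8.05, 28.6 and 7.82 CPM. Both peaked in deficient replicate 3 with the diets overlapping, and Tnni2 kept a floor of several CPM in every library while Tnnt3 fell near or below 1. Fast troponin C, Tnnc2, reached just 3.42 CPM in deficient replicate 3 and 1.55 in deficient replicate 4, and 74% of its exonic bases lie in exons of Ube2c, so its level is uncertain.

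Of the remaining fast members, the light chain Myl1 was at 0.127, 0.599, 547, 56.9 and 0 CPM on the deficient diet and at 0.216, 0.608, 2.34, 24.7 and 0 CPM on the normal diet. The alpha-actinin of fast Z-discs, Actn3, was at 0.254, 0.599, 445.5, 88.2 and 0.288 CPM against 0.216, 0.983, 2.90, 40.2 and 0.336 CPM. Both genes had a steeper drop from deficient replicate 3 to replicate 4 than Myh4, and for both the low deficient libraries overlapped the low normal-diet ones. The regulatory light chain Mylpf reached 401 CPM and the fast myosin binding protein Mybpc2 reached 346 CPM in deficient replicate 3. Per kilobase of exon, where levels of different genes can be compared, Myh4 led deficient replicate 3 at 489 RPKM, followed by Tnnt3 at 385, Mylpf at 378, the calcium buffer Pvalb at 292 and Myl1 at 264. In deficient replicate 4 Myh4 at 110 RPKM and Tnnt3 at 109.6 RPKM were level, followed by Mylpf at 97.9 and Eno3 at 94.4.

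The slow-fibre members were far lower. Of the 4, Tnnc1 was listed at 0, and the rest summed to 0.983, 0.899, 71.7, 83.7 and 1.15 CPM on the deficient diet and to 2.00, 1.5, 6.69, 15 and 3.79 CPM on the normal diet. Here deficient replicate 4, not replicate 3, was the highest library. Most of that sum was Mybpc1, which was at 0.0317, 0, 59.2, 68.9 and 0 CPM on the deficient diet and at 0.270, 0, 4.56, 10.5 and 0 CPM on the normal diet. Mybpc1 is classed as the slow isoform but is also made in fast fibres.

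The slow troponins were low, and Tnnt1 stood out from its floor more clearly than Tnni1. Tnnt1, the slow troponin T, was at 0.254, 0.300, 7.39, 8.51 and 0.216 CPM on the deficient diet and at 0.702, 0.0936, 0.468, 1.58 and 0.505 CPM on the normal diet. Tnni1, the slow troponin I, was at 0.698, 0.599, 5.17, 6.30 and 0.937 CPM against 1.03, 1.40, 1.66, 2.91 and 3.28 CPM. Both were highest in deficient replicate 4, and Tnni1 was as high in normal-diet replicate 5, a library with no Myh4 count, as in the muscle-bearing normal-diet replicate 4. Per kilobase in deficient replicate 3, Tnnt1 was at 3.35 RPKM and Tnni1 at 1.44 RPKM, beside 385 and 194 RPKM for their fast partners Tnnt3 and Tnni2.

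The 2 libraries richest in muscle transcripts differed in their mix of members and not just in amount. Both came from the deficient diet, so the comparison is between libraries, has no replicates and carries counting intervals only. The median member was 3.54-fold higher in deficient replicate 3 than in replicate 4, and 33 of 41 members were at least 2-fold higher. Over all tested genes with at least 10 counts in both, 7.14% of 12747 were at least 2-fold higher and 5.49% at least 2-fold lower. Between deficient replicates 3 and 4 the ratio ran from 10.3 (95% exact interval 9.30 to 11.5) for triadin (Trdn), which anchors calsequestrin at the release channel, down to 0.812 (0.768 to 0.858) for Myh2. Close to triadin came Myl1 at 9.61 (9.08 to 10.2), the muscle AMP deaminase Ampd1 at 9.20, Pvalb at 7.84 and the fast calsequestrin Casq1 at 7.56. Myh4 stood at 4.45 (4.37 to 4.53) and Ttn at 6.23. At the other end lay every slow member detected. Mybpc1 was at 0.860 (0.802 to 0.922), Tnnt1 at 0.868 (0.71 to 1.06) and Tnni1 at 0.820 (0.646 to 1.04). Next to these were the IIx and IIa heavy chains Myh1, at 0.859 (0.795 to 0.927), and Myh2. Actn2, the alpha-actinin of all striated fibres, was nearly level at 1.10 (1.01 to 1.20). Intervals lay wholly below 1 for 3 members, Myh1, Myh2 and Mybpc1. In the step from deficient replicate 4 to normal-diet replicate 4 the median ratio was 2.87, and 34 of 39 members were at least 2-fold higher, against 2.44% of all genes. The highest ratio of that step was that of Myh2, 6.65, and Trdn was at 2.16.

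**Figure D3:**
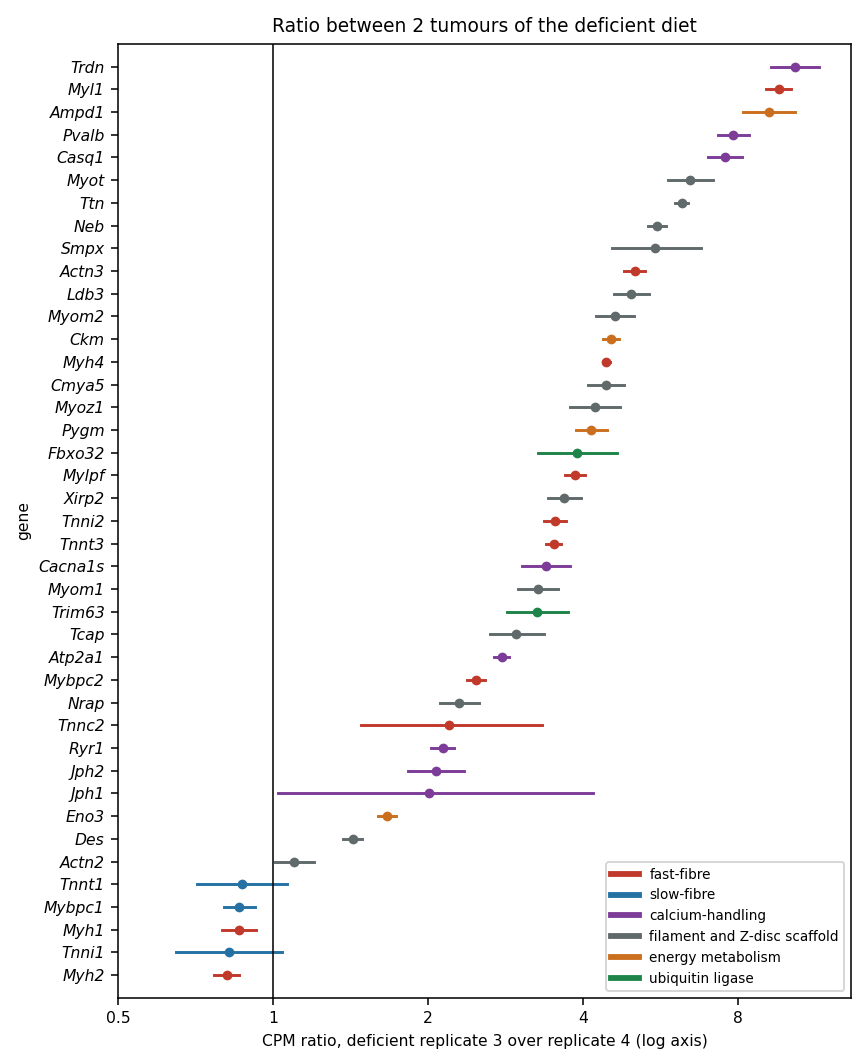
Ratio of CPM in deficient replicate 3 to CPM in deficient replicate 4 for each member with at least 10 counts in both (log axis), coloured by role, with 95% exact counting intervals. Fast and calcium-handling members lie mostly to the right of 1, while the slow members and Myh1 and Myh2 lie at or left of it.

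Shares within paralog families set aside how much muscle RNA a library held, and they too separated the libraries. Myh1 and Myh2 together made up 4.53% (4.39 to 4.68) of the counts of Myh1, Myh2, Myh4 and Myh7 in deficient replicate 3 and 8.84% (8.12 to 9.61) in normal-diet replicate 4. The share was 20.2% (19.6 to 20.8) in deficient replicate 4 and 19.3% (16.8 to 22.1) in normal-diet replicate 3. The 4 libraries thus fell at 3 separate levels, and each diet held a library with a lower and a library with a higher share. Mybpc1 took 14.6% (14.0 to 15.3) of the Mybpc1 and Mybpc2 counts in deficient replicate 3, 24.5% (21.6 to 27.5) in normal-diet replicate 4, 33.0% (31.7 to 34.4) in deficient replicate 4 and 48.4% (41.7 to 55.2) in normal-diet replicate 3. Actn2 took 8.56%, 12.9%, 30.1% and 50.4% of the Actn2 and Actn3 counts in the same order of libraries. Tnnt1 took 1.20%, 2.55%, 4.67% and 5.88% of the troponin T counts in that order. The last value rests on a Tnnt1 level that libraries without fast myosin also had. Not every family kept the order. Tnni1, with the same limit, took 1.75%, 9.24%, 7.13% and 17.1% of the troponin I counts. Myh7 took 0.150%, 0.228%, 0.753% and 0% of the heavy chain counts, the last being 0 of 869 (upper limit 0.424%). Myl2 took 1.99%, 2.02%, 3.41% and 0% of the Myl2 and Mylpf counts. Within the fast members, Myh4 alone held 51.4% of counts in deficient replicate 3, 52.5% in normal-diet replicate 4, 44.8% in deficient replicate 4 and 43.5% in normal-diet replicate 3. The intervals are exact 95% intervals and cover counting error only.

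**Figure D4:**
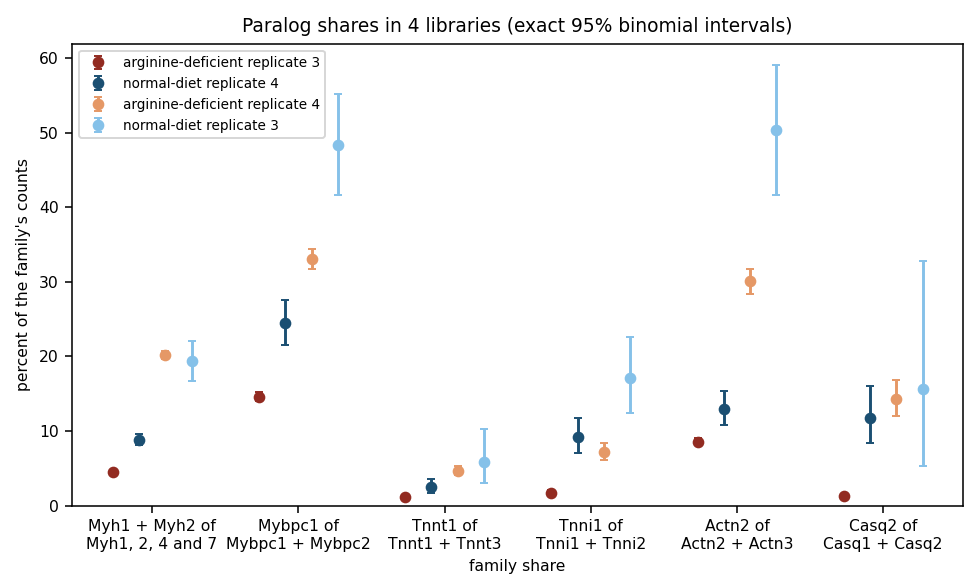
Share of family counts (percent) taken by the slow or less fast paralog in each of the 4 libraries with the most muscle transcripts, with exact 95% intervals. Deficient replicate 3 is lowest throughout the families plotted, and normal-diet replicate 4 is below deficient replicate 4 except for Tnni1.

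Calcium-handling members summed to 3.97, 3.89, 1506, 393 and 5.12 CPM in deficient replicates 1 to 5 and to 4.75, 7.11, 15, 137 and 6.31 CPM in normal-diet replicates 1 to 5. The release channel, the pump and the stores were all present where the fast myosins were. Atp2a1, the calcium pump of fast fibres, was at 0.127, 0.479, 519, 187 and 0.216 CPM on the deficient diet and at 0.162, 1.08, 5.15, 61.9 and 0 CPM on the normal diet. Ryr1 was at 2.06, 1.44, 182, 85.3 and 2.24 CPM against 1.40, 3.51, 4.43, 23.8 and 1.43 CPM. Both followed Myh4 across libraries with overlapping diets, but Ryr1 never fell below 1.40 CPM. For Atp2a1, 43.9% of exonic bases lie in the body of Rabep2 and 21.9% in its exons.

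Pvalb, the soluble calcium buffer of the fastest fibres, was at 0, 0.180, 304, 38.7 and 0.0721 CPM on the deficient diet and at 0, 0.468, 0.937, 20.1 and 0.252 CPM on the normal diet. Casq1, which stores calcium in the reticulum, was at 0.0952, 0, 239.8, 31.7 and 0.0721 CPM against 0.486, 0.281, 1.15, 13.4 and 0.336 CPM. These 2 genes fell more steeply than Myh4 from deficient replicate 3 to replicate 4, but not from there to normal-diet replicate 4, where the drop was 1.92-fold for Pvalb, 2.37-fold for Casq1 and 2.50-fold for Myh4. From normal-diet replicate 4 to replicate 3 the drop was 21.5-fold (14.0 to 34.7) for Pvalb, 11.6-fold (7.82 to 18) for Casq1 and 8.89-fold (8.21 to 9.63) for Myh4, but 3.27-fold (2.65 to 4.06) for Myh2. Trdn was at 166, 16.0 and 7.41 CPM in deficient replicates 3 and 4 and normal-diet replicate 4, and Cacna1s at 63.3, 18.7 and 6.13 CPM. Junctophilin 2 (Jph2), which joins the surface membrane to the reticulum, spanned a narrower range, at 1.68, 1.80, 31.6, 15.2 and 2.45 CPM on the deficient diet and 2.54, 1.64, 2.21, 4.60 and 4.29 CPM on the normal diet. Normal-diet replicate 5 was nearly level with normal-diet replicate 4, and the diets overlapped. Jph1 peaked at 1.13 CPM, and 78.2% of its exonic bases lie in the body of Gm28376.

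The 14 scaffold members build the Z-disc, the M-band and the elastic filament. They summed to 15.4, 12.1, 3218, 763 and 16.6 CPM on the deficient diet and to 14.2, 21.2, 63.6, 264 and 15.2 CPM on the normal diet. Titin was at 1.30, 0.779, 1326, 213 and 0.865 CPM in deficient replicates 1 to 5 and at 0.594, 2.85, 13.5, 94.4 and 1.09 CPM in normal-diet replicates 1 to 5. Nebulin, the ruler of the thin filament, was at 3.78, 3.95, 649, 116 and 4.25 CPM against 4.48, 6.79, 10.3, 50.9 and 3.45 CPM. Both peaked in deficient replicate 3 and overlapped between diets. Ttn is by far the longest member, so that its 1326 CPM came to 11.4 RPKM, under that of Myh2 at 12.8 and Mybpc1 at 13.1.

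Desmin (Des), the intermediate filament around the Z-disc, is also made by smooth muscle and pericytes. It was at 4.41, 1.86, 224, 157 and 5.26 CPM on the deficient diet and at 3.72, 3.46, 14.5, 30.7 and 5.13 CPM on the normal diet, and its ratio between deficient replicates 3 and 4 was only 1.43. Myomesin 1 (Myom1), which links thick filaments at the M-band, was at 2.47, 2.94, 85.1, 26.0 and 2.74 CPM against 1.67, 1.92, 4.47, 9.71 and 1.26 CPM. Des and Myom1 were detected in every library, and in both the diets overlapped, with raised libraries on each. All exonic bases of Myom1 lie within other annotated gene bodies, among them Myl12a, so its level is uncertain. Xirp2, the Z-disc linker Ldb3 and myotilin (Myot) reached 140.4, 158 and 125 CPM in deficient replicate 3 and were each at or under 0.793 CPM in the 6 libraries without much fast myosin. Actn2 reached 41.7, 37.9, 5.98 and 2.94 CPM in deficient replicates 3 and 4 and normal-diet replicates 4 and 3. Cmya5, Myom2, Nrap and the calcineurin-binding Myoz1 were between 70.5 and 131 CPM in deficient replicate 3, and Tcap and Smpx were at 44.6 and 28.0 CPM. For Xirp2, 74.4% of exonic bases lie in the body of Gm13601, and for Cmya5, 21.7% lie in exons of other genes.

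Among the 4 energy genes, Ckm behaved like a sarcomere gene and Eno3 did not. Ckm was at 0.0634, 0.300, 736, 162 and 0.0721 CPM on the deficient diet and at 0, 1.26, 6.81, 64.7 and 0 CPM on the normal diet. The muscle enolase Eno3 was at 78.2, 62.5, 273, 164 and 82.8 CPM against 113, 67.2, 94.0, 102 and 140.2 CPM. Ckm ranged from 0 to 736 CPM, with raised libraries on both diets. Eno3 was at 62.5 CPM or more in every library, including those where the other members were near 0. The glycogen phosphorylase Pygm was at 184, 44.3 and 16.3 CPM in deficient replicates 3 and 4 and normal-diet replicate 4, and between 0.721 and 2.90 CPM elsewhere. Ampd1 was at 123, 13.3 and 6.85 CPM in the same 3 libraries and at most 0.360 CPM in the others.

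Trim63 and Fbxo32 encode the ubiquitin ligases MuRF1 and atrogin-1, which are known for their rise in wasting muscle. Trim63 was at 38.6, 11.8 and 3.73 CPM in deficient replicates 3 and 4 and normal-diet replicate 4, and at most 0.681 CPM in the others. Fbxo32 was at 4.06, 3.59, 26.1, 6.69 and 3.60 CPM on the deficient diet and at 2.00, 3.37, 2.26, 5.93 and 5.55 CPM on the normal diet. Fbxo32 was high in deficient replicate 3 alone, and elsewhere the diets overlapped. Their ratios between deficient replicates 3 and 4, 3.26 for Trim63 and 3.90 for Fbxo32, lay near the median of all members. These 2 ratios are not alike, because Fbxo32 in deficient replicate 4 was near its level in libraries with little muscle signal.

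No member was called between the diets. Of the 42, 26 passed the filter on low counts and 16 did not, among them Myh1, Myh2, Mybpc1, Pvalb, Casq1 and Trdn. In edgeR's quasi-likelihood test with Benjamini-Hochberg adjustment over all 12929 genes tested, 0 of the 26 had an adjusted p under 0.05 in either direction, against 0.0541% of all genes called higher on the deficient diet and 0% called lower. DESeq2 and limma voom with sample weights also called 0 of the 26, against 1.01% and 2.88% of all genes called in either direction. At an unadjusted p under 0.05, 15 of the 26 were higher on the deficient diet, against 3.54% of all genes, and 0 were lower, against 3.19%. All 26 fold changes were positive, as were those of 50.3% of all genes. No member had libraries of the diets that did not overlap, against 1.65% of all genes. The members vary together across the libraries, so they are not separate observations.

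Fold changes of the fast and calcium genes had wide errors. Myh4 averaged 59.5 ± 116 CPM on the normal diet and 722 ± 1275 CPM on the deficient one (SD, n = 5 each), a log2 fold change of 3.60 (SE 2.25, edgeR adjusted p = 0.884). Myl1 had the highest of the named members, 4.42 (SE 1.99, adjusted p = 0.731). The smallest adjusted p was that of Myom1, whose log2 fold change was 2.64 (SE 1.01, adjusted p = 0.625). Next to these, the log2 fold change was 2.84 (SE 1.18) for Tnni2, 3.35 (SE 1.42) for Neb, 2.97 (SE 1.32) for Ryr1 and 3.36 (SE 1.94) for Atp2a1, with edgeR adjusted p from 0.687 to 0.855. The slow troponin T gene Tnnt1 was at 2.32 (SE 1.04, adjusted p = 0.727), Tnni1 at 0.45 (SE 0.65, adjusted p = 0.998) and Eno3 at 0.36 (SE 0.37, adjusted p = 0.974). In each of these genes the spread within the deficient diet was as large as or larger than the difference between the diets.

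**Figure D5:**
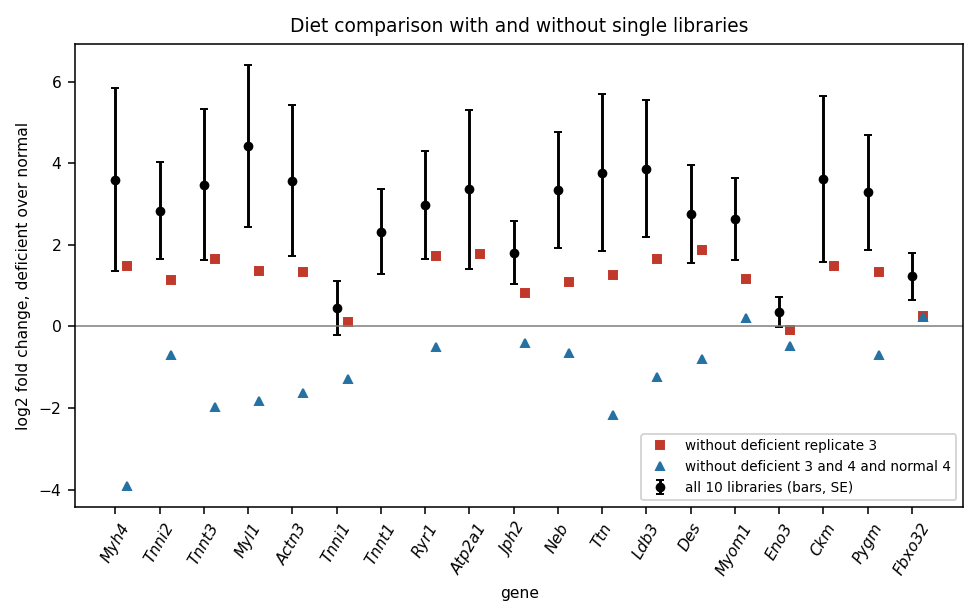
Log2 fold change of deficient over normal diet (y axis) for 19 of the tested members (x axis, by role), from edgeR's quasi-likelihood fit to all 10 libraries (black, bars are standard errors), without deficient replicate 3 (red squares) and without the 3 richest libraries (blue triangles). All black points are above 0, every red square shown is below its black point, and most blue triangles are below 0.

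The number of members at an unadjusted p moved with the libraries used, while the direction held when any 1 library was left out. All tested members stayed positive in 8 of the 10 such fits, and 24 of 25 did without deficient replicate 3 and without deficient replicate 4. Without deficient replicate 3, 0 of 25 tested members had an unadjusted p under 0.05 (against 5.55% of all genes higher and 5.09% lower), and the log2 fold change of Myh4 went from 3.60 to 1.48. Without deficient replicate 4, 4 of 25 members did, Neb, Tnni2, Myoz1 and Myom1, all higher (against 3.38% of all genes higher and 2.91% lower). Leaving out normal-diet libraries also lowered the count, although 37 members were then tested in most fits. It was 0 of 37 without normal-diet replicate 1 (against 2.81% of all genes higher), 1 of 37 without replicate 2 (2.9%), 1 of 26 without replicate 3 (2.14%) and 1 of 37 without replicate 5 (3.79%). It rose to 26 of 28 without normal-diet replicate 4 (3.23%), and to 26, 27 and 24 of 37 without deficient replicates 1, 2 and 5 (3.13%, 3.39% and 3.16%). With all 10 libraries it was 1 of 26 by limma voom with sample weights (10.3%), 3 by edgeR's robust fit (3.39%) and 2 with a replicate block (1.98%). Without the 3 richest libraries together, the direction turned: 2 of 21 members tested had a positive fold change, and Myh4 was at -3.91, Ttn at -2.18 and Tnnt3 at -1.97. Of those 21, 4 had an unadjusted p under 0.05, Tnni1, Ttn, Mybpc2 and Myh4, all lower (against 3.55% of all genes lower and 4.86% higher). That comparison sets 3 deficient libraries against 4 normal-diet ones, and 0 members were called. The libraries were left out for their level of other striated muscle genes, and the next richest, normal-diet replicate 3, stayed in. The choice removed the deficient libraries with muscle signal but kept a normal-diet one, so the turn follows in part from that choice.

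Muscle genes outside the 42 showed the same 3 libraries. A list of 23 other striated muscle genes had 4 at 0 throughout (Acta1, Actc1, Xirp1 and Cox6a2). It summed to 40.1, 37.7, 496, 240 and 37.4 CPM on the deficient diet and 34.8, 26.7, 46.2, 81.0 and 36.1 CPM on the normal diet. By edgeR, 0 of its 7 tested genes were called (against 0.0541% of all genes, all higher). At an unadjusted p under 0.05, 6 were higher (against 3.54% of all genes) and 0 were lower (3.19%). The skeletal actin gene Acta1 is among the most abundant transcripts of muscle, so a 0 in this table is read as a gene listed at 0 and not as absence. For Acta1, Actc1, Xirp1 and Cox6a2, as for Tnnc1, 100% of exonic bases lie in the body of another annotated gene. So do those of Pln, Scx and Lgals7, genes of the coupling, tendon and keratinocyte lists below that were also at 0 throughout. All exonic bases of Myom1 lie in other gene bodies too, but Myom1 was detected. Myf5 and Myl7 were at 0 throughout without such overlap. The part of the overlap in the zeros was not tested. A list of 6 other slow-fibre genes reached 27.1 CPM in deficient replicate 3, 22.5 in deficient replicate 4 and 5.36 in normal-diet replicate 4. It includes the slow heavy chain Myh7, at 4.62, 6.30 and 0.664 CPM in those libraries. Other annotated gene bodies, Mhrt among them, span 75.3% of the exonic bases of Myh7. The ratio of deficient replicate 3 to replicate 4 went both ways among these 6, being 0.589 (0.442 to 0.782) for Casq2, 0.733 (0.573 to 0.936) for Myh7 and 1.11 (0.55 to 2.27) for Myh7b. It was 1.46 (1.14 to 1.88) for Myoz2, 1.95 (1.38 to 2.81) for Myl3 and 2.22 (1.72 to 2.89) for Myl2, so the slow light chains did not share the ratio below 1 of Myh7. Among the other striated genes most detected ratios were above 1, up to 6.48 (5.18 to 8.20) for Phkg1 and 6.57 (5.56 to 7.81) for Ckmt2. Lmod2, Tnnt2 and Ankrd2 were below 1. The lowest were Myom3 at 0.167 (0.112 to 0.242) and the Z-disc gene Csrp3 at 0.177 (0.136 to 0.227), both lower than any member. Genes that work beside Ryr1 were also spread out, from 4.98 for Cacng1, 4.43 for Sypl2 and 4.0 for Hrc to 1.62 for Stac3 and 1.5 for Jsrp1. Between these lay Srl at 3.53, Tmem38a at 3.22 and Cacnb1 at 2.02. The pump Atp2a2 was at 1.03, Bin1 at 0.626 and the pump inhibitor Sln at 0.217, all below the lowest calcium-handling member, Jph1 at 2.01. The list of 12 other coupling genes as a whole ran from 652 to 1085 CPM and was dominated by the widely expressed Atp2a2 and Bin1. By edgeR, 0 of its 6 tested genes were called (against 0.0541% of all genes), and 4 had an unadjusted p under 0.05, all higher (against 3.54%). Of these, Atp2a2 was at 601 to 682 CPM on the deficient diet and 489 to 563 CPM on the normal diet, without overlap (as in 1.65% of all genes). It was highest in deficient replicate 2, which had little muscle signal.

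Summed over each list for other host tissues, only the tendon genes had the same top 3 libraries as the members. Single genes of other lists did too, among them the cardiac heavy chain Myh6, at 9.64, 5.74 and 0.562 CPM in deficient replicates 3 and 4 and normal-diet replicate 4, and Synpo2 of the smooth muscle list, at 45.4, 12.9 and 5.16 CPM. Cardiac genes summed to 19.0 to 23.7 CPM on the deficient diet and 9.92 to 25.7 CPM on the normal diet, and smooth muscle genes to 126 to 155 and 104 to 142 CPM. Adipocyte genes ran from 36.7 to 83.8 and from 53.1 to 90.5 CPM, mostly from Fabp4 and Plin4. Cfd of that list was at 0.0728 and 0 CPM in deficient replicates 3 and 4 and at 2.15 CPM in normal-diet replicate 4. It was at 7.61 CPM in deficient replicate 1, 6.58 and 8.14 CPM in normal-diet replicates 1 and 2, and 0.168 CPM in normal-diet replicate 5. Skin keratinocyte genes ran from 3.74 to 7.75 and from 3.67 to 5.10 CPM, and Schwann cell genes from 38.6 to 64.6 and from 48.3 to 77.0 CPM. Tendon genes were highest in normal-diet replicate 4, at 33.7 CPM, followed by deficient replicates 3 and 4 at 22.4 and 18.4 CPM, with normal-diet replicate 5 level at 18.4 CPM. Most of the tendon sum was Thbs4, at 30.8 CPM in normal-diet replicate 4 and 16.4 CPM in deficient replicate 4. Thbs4 alone did not have the top 3 libraries of the members, since normal-diet replicate 5 was nearly level with deficient replicate 3 and above deficient replicate 4. Haemoglobin genes ran from 56.2 to 106 and from 101 to 602 CPM, and were highest in normal-diet replicates 1 and 5, which had little muscle signal. None of the genes tested in these lists was called by edgeR (against 0.0541% of all genes). The smallest edgeR adjusted p, 0.281, was that of a haemoglobin gene. All 4 haemoglobin genes had an unadjusted p under 0.05 and were lower on the deficient diet (against 3.19% of all genes). The part of any of these tissues in the member levels was not tested.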

How the data were processed

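Total RNA of 10 tumours was extracted with TRIzol and sequenced by Illumina, per the labels' protocols. The deposited values are raw whole-number counts per gene. The submitters' processing notes name FastQC, STAR, featureCounts and mm10, and the sources used here give no versions, settings or strand. Titles with Arg were taken as the deficient diet and titles with Control as the normal diet. GENCODE M21, on the same build, gave symbols, exon lengths and overlaps, and RefSeq gave promoter windows. CPM used TMM factors (0.953 to 1.03), and RPKM is CPM per kilobase of exon. The members and the other lists were chosen with earlier results of these data known, so no p is given for a list. The diets were compared with edgeR 4.0.16 in R 4.3.3, after filterByExpr (minimum count 10, minimum total 15), with diet as the only term. The common biological coefficient of variation was 26.5%. Each library was taken as 1 mouse, and all pairs of libraries differed beyond sampling noise. On simulated data with the same design, run on 12829 genes, the test recovered 96.9% of genes changed 4-fold, 58.3% changed 2-fold and 7.81% changed 1.5-fold. The changed genes were drawn at random from all but the lowest genes, each simulated at its own spread. Those rates are not the rates for the members, many of which varied more, such as Myh4 (SE 2.25 of its log2 fold change). Up to 4 members of each role with the highest mean count, the one with the smallest p and the troponin pairs are given in full. Alternatives were other size factors and filters, DESeq2 1.42.0, limma 3.58.1 voom with sample weights, a robust fit, a replicate block and leaving out libraries.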

Additional observations from a re-analysis of the deposited data

Results flagged for a closer look

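In normal-diet tumours, Myoz1 was at 6.44 CPM in replicate 4, far from the other 4 libraries, which were at 0.336 to 0.863 CPM. Ampd1 was at 6.85 CPM in that library and at 0.108 to 0.341 CPM in the other 4. In both, the gap to the nearest library took up most of the range on the log2 scale, 0.744 of it for Myoz1 and 0.804 for Ampd1, above the limit of 0.71 for 5 samples. The rule was run within each diet on all 42 members and on the summed roles, and flagged nothing else. Chance alone flags about 1 in 20 groups, and these flags were not shown to be more than chance would give. Both genes were flagged in the same library, the one richest in muscle transcripts on that diet.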

How the results depend on the processing

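In the diet comparison, 0 members were called higher or lower under every alternative run. The number of genes called over the whole table was 7 in the fit described above, 130 with DESeq2, 373 with limma voom and sample weights, 1 with a replicate block, 18 without the 3 libraries richest in muscle transcripts, and 0 to 16 with each library left out in turn. Replicate numbers did not pair the tumours across diets: the 5 same-number correlations were 0.127, -0.349, -0.00608, 0.127 and 0.183, and 1 deficient library correlated best with its own number. Under the replicate block the median log2 fold change of the 26 members moved from 3.32 to 1.48, their number at an unadjusted p under 0.05 from 15 to 2, and Tnni1 to -0.045. The voom weights ran from 0.205 for deficient replicate 3 to 4.2 for normal-diet replicate 3. Under voom the median log2 fold change of the fast members moved from 3.60 to -0.45, and Myh4 was at -1.26, Tnnt3 at -0.45, Myl1 at -1.20, Actn3 at -0.30, Tnni1 at -0.22, Atp2a1 at -0.79, Ttn at -0.79, Ldb3 at -0.036 and Ckm at -1.45. Without the 3 richest libraries, chosen by their muscle transcripts, the median was -1.82 for the fast members. It was -1.28 for the slow ones, where Tnni1 alone was tested. Single genes were then at -3.91 for Myh4, -0.69 for Tnni2, -1.97 for Tnnt3, -1.82 for Myl1, -1.63 for Actn3, -1.28 for Tnni1, -0.51 for Ryr1, -0.42 for Jph2, -0.66 for Neb, -2.18 for Ttn, -1.24 for Ldb3, -0.81 for Des, -0.47 for Eno3 and -0.69 for Pygm. With each library left out in turn, Tnni1 ran from -0.11 (without deficient replicate 4) to 0.69, Eno3 from -0.086 (without deficient replicate 3) to 0.53, and the medians from 1.48 to 5.92 for fast, -0.11 to 2.62 for slow and 1.72 to 6.32 for calcium members. Depth limits the low libraries, where many members rest on 3 counts or fewer, and 3 counts correspond to 0.0952 to 0.252 CPM.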

Other observations

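Genes of developing and regenerating muscle differed in how they followed the members. A list of 12 myogenic and neuromuscular genes, with the satellite cell gene Myf5 listed at 0, summed to 13.8, 17.0, 82.3, 28.3 and 13 CPM on the deficient diet and to 5.23, 11.8, 12.4, 18 and 12.6 CPM on the normal diet. The most abundant gene in 9 of the 10 libraries, the acetylcholine receptor subunit Chrna1, did not follow them: it was at 13.6, 16.8, 12.8, 9.71 and 13 CPM on the deficient diet and at 5.02, 11.6, 11.3, 9.30 and 11.7 CPM on the normal diet. Most of the higher sum in deficient replicate 3 was the neonatal heavy chain Myh8, at 54.5 CPM there, 7.77 in deficient replicate 4, 3.17 in normal-diet replicate 4 and at most 0.383 CPM elsewhere. The embryonic heavy chain Myh3 differed little between those 3 libraries, at 2.26, 3.28 and 1.99 CPM. The myogenic regulator Myf6, made in mature fibres, was at 7.57, 3.67 and 0.715 CPM. These are values of single libraries. Of the list only Chrna1 passed the filter, and edgeR did not call it between the diets (adjusted p = 0.826).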
